A study of Mus musculus with 5 samples.

Results

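Syndecans, glypicans and the genes of hyaluronan synthesis and binding build the sugar coat of a fibroblast, and 10 of them were examined in cardiac fibroblasts (CF): *Sdc1*, *Sdc2*, *Sdc4*, *Gpc1*, *Gpc3*, *Gpc4*, *Gpc6*, *Has1*, *Has2* and *Cd44*. They were chosen by name from the 20365 gene names of the deposited tables. The choice of genes used no measured value, but the list was drawn up with earlier results of these data known. The interval read for each gene was chosen by its level in the labeled libraries. The data are SLAMseq libraries, in which 4-thiouridine (S4U), a uridine analog, is built into RNA made during the labeling time and is read as C in place of T after alkylation. CF were isolated by collagenase perfusion from hearts of adult, healthy, male C57Bl/6J wildtype mice and grown to confluency. The labeled group of 3 libraries received 0.1 mM S4U for 12 h, and the unlabeled group of 2 libraries was cultured for the same 12 h without S4U. All cells were thus plated, cultured CF from unstressed hearts, no infarct sample entered, and the alkylation protocol is given for both groups. The study's methods speak of separate CF preparations, but neither they nor the labels say how many mice gave each library or whether a replicate number marks the same preparation in both groups, so p-values measure the spread between these libraries.

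Syndecans are transmembrane proteoglycans that carry heparan sulfate chains on their ectodomain, bind growth factors and matrix proteins with these chains, and link them to the cytoskeleton. Glypicans carry heparan sulfate too, but sit on the membrane by a lipid anchor and tune the access of Wnt, hedgehog, BMP and FGF ligands to their receptors. Hyaluronan is a long sugar polymer without a protein core that hyaluronan synthases extrude through the plasma membrane, and CD44 is its main receptor on many cells. In the heart, these molecules belong to the fibroblast surface and to the matrix laid down during repair.

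The labels were checked on lists of marker genes. All 10 fibroblast markers were read in every library, with a summed level of 39221 to 42840 CPM (reads scaled to the counted total of a library) in the labeled and 31905 to 35545 in the unlabeled libraries, whereas the 7 macrophage markers summed to 52.0 to 77.8 and 54.8 to 82.3 CPM. The 6 endothelial markers summed to 96.8 to 170 CPM with S4U and 142 to 194 CPM without it, and the 5 mural markers to 320 to 595 and 329 to 504 CPM. Cardiomyocyte markers (5 genes) reached at most 7.03 CPM and the 5 mesothelial or epicardial markers, with *Msln* and *Krt19* at 0, at most 5.93 CPM. On 1 interval per gene, the libraries held 506045 to 1843033 reads, the fewest in labeled replicate 3. The T>C conversion rate, the share of covered T positions read as C, was 0.0353 to 0.0358 over all intervals in the labeled and 0.000652 to 0.00111 in the unlabeled libraries.

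Each gene was represented by its 3′ UTR interval with the highest mean deposited CPM in the labeled libraries. The deposited CPM divides reads by a number that is 7.58 to 28.9 times the reads counted on these intervals, with the largest ratio in labeled replicate 3. Levels are therefore given below as CPM relative to the counted reads, in the order labeled replicates 1, 2 and 3, then unlabeled replicates 1 and 2. The libraries read a transcript from its 3′ end, so levels were not divided by length, and an interval that stops short of a transcript end can miss reads. In bulk RNA, a lower level can come from fewer cells that express a gene or from less RNA per cell, and these cannot be told apart.

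*Sdc2* was the most abundant of the 10 genes in every library, followed in the labeled means by *Cd44* and *Sdc4* and in the unlabeled means by *Gpc6* (242 ± 72.7 CPM) and *Cd44* (181 ± 32.8 CPM; SD, n = 2), and *Has1* was not read in any library. In labeled CF, mean levels fell from 506 ± 75.2 CPM for *Sdc2* (SD, n = 3) to 12.6 ± 4.47 CPM for *Has2* (SD, n = 3). Within this order, the ranges of *Sdc4* and *Gpc6*, of *Gpc6* and *Gpc4*, and of *Gpc1* and *Gpc3* overlapped between neighbours, and those of the other neighbouring pairs did not. On the deposited scale, the labeled means were 44.7 ± 29.9 CPM for *Sdc2*, 27.5 ± 17.2 CPM for *Cd44*, 20.8 ± 9.47 CPM for *Sdc4*, 16.6 ± 13.3 CPM for *Gpc6* and 11.6 ± 8.17 CPM for *Gpc4* (SD, n = 3 each). The same scale gave 5.62 ± 4.14 CPM for *Sdc1*, 2.27 ± 1.12 CPM for *Gpc1*, 1.87 ± 0.932 CPM for *Gpc3* and 1.04 ± 0.771 CPM for *Has2* (SD, n = 3 each). For these 9 genes, labeled replicate 1 gave the highest and labeled replicate 3 the lowest deposited CPM; the factor between the denominator and the counted reads runs the other way, from 7.58 to 11.8 to 28.9.

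**Figure D1:**
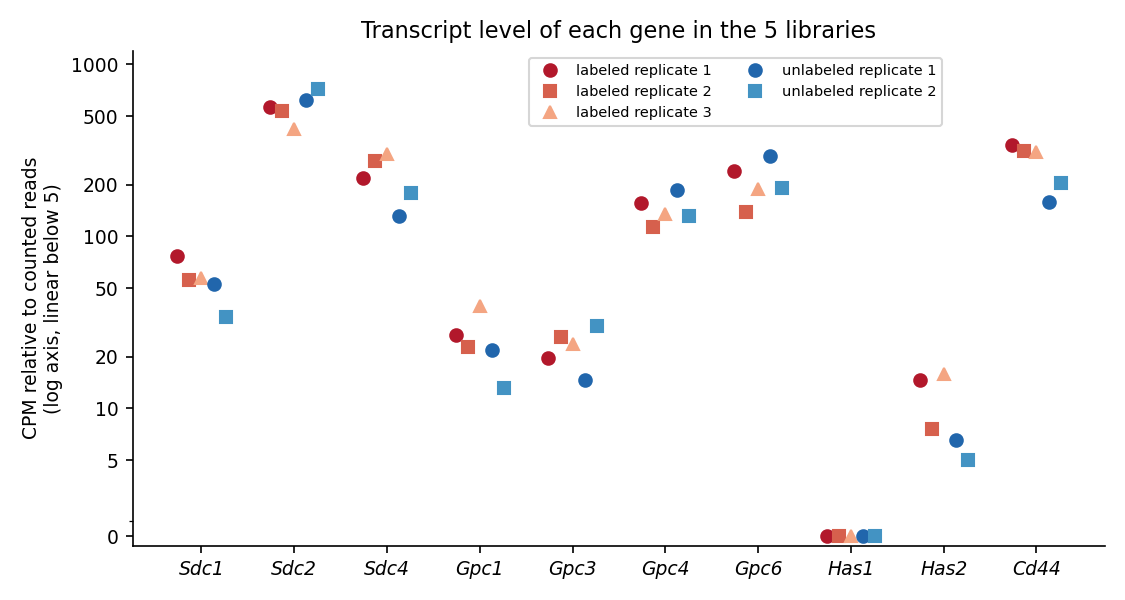
Level of each gene in the 5 libraries as CPM relative to counted reads, on an axis that is logarithmic above 5 and linear below. Red symbols are the 3 labeled and blue symbols the 2 unlabeled libraries. *Sdc2* is highest in every library, *Has1* lies at 0 in all 5, and the red symbols of *Cd44*, *Sdc4*, *Sdc1*, *Gpc1* and *Has2* lie above both blue ones.

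Among the syndecans, *Sdc2*, a syndecan typical of mesenchymal cells, measured 563, 534 and 421 CPM with S4U and 622 and 718 CPM without it. It rests on 213 to 1147 reads per library, the most of the 10 genes, and every labeled library lay below both unlabeled ones. *Sdc4*, which sits in focal adhesions and signals through protein kinase C, measured 219, 274 and 300.4 CPM with S4U and 131 and 179 CPM without it, so that the groups did not overlap, with the labeled one higher. *Sdc1*, best known from epithelial and plasma cells, measured 76.8, 56.1 and 57.3 CPM with S4U and 52.6 and 34.1 CPM without it. Here too the groups were separate, but labeled replicates 2 and 3 and unlabeled replicate 1 lay close together.

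The 3 syndecans had similar T>C rates in labeled CF. *Sdc1* reached 0.0372, 0.0533 and 0.0256 with S4U and 0.000585 and 0 without it, a labeled mean of 0.0387 ± 0.0140 (SD, n = 3). Its exact (Clopper-Pearson) 95% counting interval ran from 0.0422 to 0.0663 in replicate 2 and from 0.0144 to 0.0418 in replicate 3. *Sdc2* reached 0.0319, 0.0352 and 0.0444 with S4U and 0.000798 and 0.000232 without it, a labeled mean of 0.0372 ± 0.00647 (SD, n = 3), with replicate 3 above the other two. *Sdc4* was the most even, with 0.0363, 0.0361 and 0.0367 in the labeled libraries, a mean of 0.0364 ± 0.000309 (SD, n = 3). Without S4U, *Sdc4* showed 0.00306 and 0.00132. The mean of these was above the unlabeled rate of 92.8% of 2107 reference genes. Each of these genes had 1000 or more covered Ts in all 5 libraries, and their median unlabeled rate was 0.000510. The background of *Sdc4* is small beside its labeled rate, and the source of this background was not tested. Intervals cover counting error only and treat covered Ts as independent, so they are too narrow where conversions share a read.

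The intervals of the syndecans lie in annotated exons of GRCm39. *Sdc1* (ENSMUSG00000020592.17) was counted on chr12:8841808-8843716, plus strand, 9 bases short of the annotated gene end, and its second interval of 1881 bases lies inside the one used. *Sdc2* (ENSMUSG00000022261.8) was counted on chr15:33032687-33034867, plus strand, 346 bases short of the gene end. *Sdc4* (ENSMUSG00000017009.5) was counted on chr2:164266167-164268005, minus strand, and an interval of 1835 bases holds the same reads. The letters ATTTA, the core of AU-rich elements, stand 11 times in the *Sdc2* interval, a number reached by 2.50% of the 2442 intervals within 20% of its length, against 1 time each in *Sdc1* and *Sdc4*. Motifs were searched on the transcript strand, and such a match is a description of letters, not of a working site.

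Among the glypicans, *Gpc6* and *Gpc4* were read at an intermediate level and *Gpc1* and *Gpc3* at a low one. *Gpc6* measured 239.8, 138 and 188 CPM with S4U and 294 and 191 CPM without it, and *Gpc4*, its close relative, measured 156, 113 and 134 CPM with S4U and 186 and 131 CPM without it. In both genes, unlabeled replicate 1 was highest and labeled replicate 2 lowest, and the groups overlapped. *Gpc1*, the glypican common in muscle and nerve, measured 26.6, 22.6 and 39.5 CPM with S4U and 21.7 and 13.1 CPM without it, on 13 to 42 reads per library. *Gpc3*, a regulator of hedgehog signaling and of body growth, measured 19.7, 25.9 and 23.7 CPM with S4U and 14.6 and 30.1 CPM without it, and the unlabeled libraries enclosed the labeled ones.

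*Gpc3* and *Gpc6* had the lowest T>C rates of the genes. *Gpc3* showed 0, 0.00847 and 0.00619 with S4U and 0.00149 and 0 without it, a labeled mean of 0.00489 ± 0.00438 (SD, n = 3). No conversion was seen in 734 covered Ts of labeled replicate 1, which allows a rate of up to 0.00409 (3 conversions). The mean *Gpc3* rate exceeded that of 0.193% of 8290 reference genes, each with 100 or more covered Ts in all 5 libraries. *Gpc3* was last among the 9 read genes in each labeled library. It rests on 12 to 31 reads per labeled library, of which 0%, 12.9% and 16.7% were counted as converted in the deposited tables.

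*Gpc6* showed 0.0208, 0.0273 and 0.0210 with S4U and 0.00105 and 0.000445 without it, a labeled mean of 0.0230 ± 0.00369 (SD, n = 3), above 6.15% of these 8290 genes. It was eighth of 9 in each labeled library, and its range lay apart from those of *Gpc4* above it and *Gpc3* below it. *Gpc4* was even, with 0.0312, 0.0316 and 0.0311 in the labeled libraries, a mean of 0.0313 ± 0.000234 (SD, n = 3), and 0.00101 and 0 without S4U. *Gpc1* showed 0.0214, 0.0441 and 0.0445 with S4U and 0.00183 and 0 without it, a labeled mean of 0.0367 ± 0.0132 (SD, n = 3). With 337 to 560 covered Ts, its exact 95% intervals in the labeled libraries all overlapped. Such overlap is no test of this spread against counting error.

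The glypican intervals differ in how they end. *Gpc1* (ENSMUSG00000034220.9) was counted on chr1:92786287-92787933, plus strand, which stops 4180 bases before the annotated gene end and shares 409 bases with *Ankmy1* on the other strand. Whether the counting used strand is not given in the sources used here, so reads of these genes may not be separate. *Gpc6* (ENSMUSG00000058571.13) was counted on chr14:118212499-118216941, plus strand, its last exon, and has a second interval of 24632 bases, chr14:117932004-117956635, which holds no exon base of the annotation. *Gpc3* (ENSMUSG00000055653.15) was counted on chrX:51361303-51361661, minus strand, 359 bases up to the annotated gene end. Its last 30 bases are shown because its few reads were counted just before this annotated transcript end, with the first of 3 copies of the polyadenylation hexamer AATAAA in capitals; the second overlaps it and the third ends the stretch.
Gpc3 end, chrX:51361303-51361332, minus strand: caaaaaaaAATAAAtaaacattcaaataaa

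*Gpc4* (ENSMUSG00000031119.6) was counted on chrX:51139884-51142397, minus strand, 2514 bases. A second interval starts at the same place and holds the first 503 bases only, chrX:51141895-51142397, so the table allows the proximal part of the *Gpc4* 3′ UTR and the distal remainder to be read separately. The last 30 bases of both intervals are shown because the comparison of the parts turns on these ends, with the variant hexamer ATTAAA in capitals.
Gpc4 proximal end, chrX:51141895-51141924, minus strand: ttatcttATTAAAagaaaaagcccaaacaa
Gpc4 distal end, chrX:51139884-51139913, minus strand: gaATTAAAtattcttgaaggtttctctgga
Of 20329 intervals, 1 per gene, 16.6% hold ATTAAA and 61.1% hold AATAAA in their last 40 bases.

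The distal part of *Gpc4* had the higher T>C rate. The proximal part showed 0.0190, 0.0265 and 0.0228 in labeled replicates 1, 2 and 3 and 0 in both unlabeled libraries, and the distal remainder showed 0.0507, 0.0412 and 0.0435 and, without S4U, 0.00212 and 0. The labeled means were 0.0228 ± 0.00375 and 0.0451 ± 0.00496 (SD, n = 3), with the distal part higher in 3 of 3 libraries by 0.0224 ± 0.00863. An exact permutation test within libraries gave a two-sided p of 0.25, the smallest that 3 pairs can give. The distal part took 28.9%, 34.1% and 41.2% of the *Gpc4* reads with S4U and 39.2% and 43.1% without it. Nested intervals with a distal part of at least 200 bases and at least 500 covered Ts in both parts of every labeled library were found in 35 genes, *Gpc4* included. In these, the distal part was higher in every labeled library in 28.6% and lower in every one in 14.3%, and the median difference was 0.00246. Of these genes, 97.1% had a smaller difference than *Gpc4*. The parts of *Gpc4* were looked at after its values were seen.

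*Gpc6* differed between its intervals as well. The intronic interval showed 0.0340, 0.0399 and 0.0361 with S4U and 0.00456 and 0 without it, a labeled mean of 0.0367 ± 0.00298 against 0.0230 ± 0.00369 in the last exon (SD, n = 3). It was higher in 3 of 3 labeled libraries, by 0.0137 ± 0.00129, with an exact permutation two-sided p of 0.25, again the smallest possible. The intronic interval took 29.9%, 31.5% and 16.7% of the *Gpc6* reads with S4U and 31.9% and 22.4% without it. Which transcript these reads come from was not tested.

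**Figure D2:**
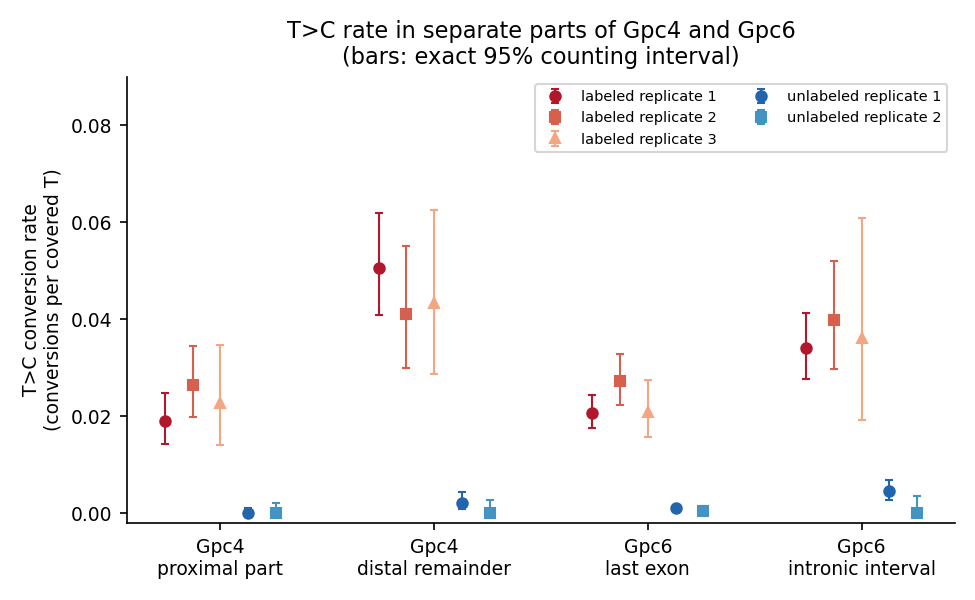
T>C conversion rate (conversions per covered T) in the proximal and distal parts of *Gpc4* and in the last exon and the intronic interval of *Gpc6*, with bars for the exact 95% counting interval. In each labeled library (red), the distal part of *Gpc4* is above the proximal one and the intronic interval of *Gpc6* above the last exon, and the unlabeled libraries (blue) lie at 0.00456 or less.

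Of the hyaluronan synthases, *Has2* was read at a low level and *Has1* was not read. *Has2*, the synthase needed for heart development, had 23, 9 and 8 reads with S4U and 12 and 5 without it, which are 14.6, 7.53 and 15.8 CPM and 6.51 and 5.02 CPM. The labeled libraries lay above the unlabeled ones, on 5 to 23 reads per library. *Has1* had 0 reads in all 5 libraries, which allows up to 1.90, 2.51 and 5.93 CPM with S4U and 1.63 and 3.01 CPM without it (3 reads per library); the last of the labeled limits is above the lowest *Has2* level. *Has1* (ENSMUSG00000003665.8) has an interval of 298 bases, chr17:18063588-18063885, minus strand, and *Has2* (ENSMUSG00000022367.9) one of 2032 bases, chr15:56529023-56531054, minus strand, 681 bases short of the gene end. The *Has2* rate was 0.0345, 0.0413 and 0.0219 with S4U, a mean of 0.0326 ± 0.00988 (SD, n = 3), with overlapping counting intervals. No conversion was seen in *Has2* without S4U, which allows rates of up to 0.00977 and 0.0194.

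*Cd44*, the hyaluronan receptor, had the highest T>C rate of the genes at a high level. It measured 341, 315 and 308 CPM with S4U and 157 and 204 CPM without it, and the groups did not overlap. Its T>C rate was 0.0506, 0.0505 and 0.0546 with S4U and 0.000777 and 0.000184 without it, a labeled mean of 0.0519 ± 0.00234 (SD, n = 3). This was above 97.7% of the 8290 genes with at least 100 and 99.5% of the 2107 genes with at least 1000 covered Ts in every labeled library. It ranked first of 9 in labeled replicates 1 and 3 and second, after *Sdc1*, in replicate 2. Of its reads, 62.4%, 66.8% and 67.3% were counted as converted with S4U and 1.72% and 0.493% without it.

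*Cd44* (ENSMUSG00000005087.19) was counted on chr2:102641486-102644477, minus strand, the last 2992 bases up to the annotated gene end, and its other interval of 65 bases had no reads. Its interval holds the AU-rich heptamer TATTTAT 3 times, the most of the 10 genes. This heptamer contains ATTTA, which stands 6 times in the same interval. Of the 1998 intervals within 20% of its length, 50.5% hold TATTTAT and 7.81% hold it as often. The sites are shown, with the heptamer in capitals, because *Cd44* had the highest rate. The 359 bases of *Gpc3*, which had the lowest, hold neither TATTTAT nor ATTTA, and 40.8% of the intervals of like length hold ATTTA. *Gpc6*, second lowest in rate, holds ATTTA 11 times and *Gpc4* 7 times, both more often than *Cd44*. The number in *Cd44* is reached by 41.2% of the intervals of like length.
Cd44 site 1, chr2:102643901-102643929, minus strand: aagggtgatgcTATTTATctttagtaagc
Cd44 site 2, chr2:102643883-102643911, minus strand: ctttagtaagcTATTTATctttgtttttg
Cd44 site 3, chr2:102641811-102641839, minus strand: cagtttttgtaTATTTATtgattgactaa
The first and second sites overlap in their flanks. *Has2* and *Gpc4* hold TATTTAT 2 times each, a number that 13.2% and 15.8% of the intervals of like length reach. *Sdc1* and *Gpc1*, whose ranges of rates overlapped those of *Has2* and *Gpc4*, hold none. *Gpc6* holds none either, and *Sdc2*, *Sdc4* and the unread *Has1* hold it 1 time each. Whether motif numbers go with the rates was not tested.

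Against the unlabeled libraries, the T>C rate rose in 8 of the 9 genes with reads, all but *Gpc3*, and in 95% of the 11179 genes tested. A beta-binomial likelihood-ratio test with Benjamini-Hochberg adjustment over all 19240 intervals gave adjusted p-values between 5.6e-06 for *Cd44* and 0.00135 for *Gpc1* for these genes. For *Gpc3*, the adjusted p was 0.268, and without labeled replicate 1, the library without a conversion, it was 0.0128, against 0.137 to 0.624 without any other single library. The median rate of the 9 genes was 0.0364, beside 0.0384 over the 8290 genes, with quartiles of 0.0336 and 0.0425. Of the 9, *Cd44* alone lay above the upper quartile and *Gpc3*, *Gpc6*, *Gpc4* and *Has2* lay below the lower one.

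The deposited tables also count converted reads, and their share of all reads is another measure of labeling. It depends on the covered Ts per read, which were 13.3 in *Gpc1* and 23.9 in *Has2* in labeled replicate 1, and it did not order all genes as the rate did. This count is not made from the same conversions as the rate, since *Sdc2* had 23 converted reads but 19 conversions in unlabeled replicate 1. *Sdc2* had 43.1%, 51.4% and 55.9% of converted reads with S4U and 2.01% and 0.559% without it. *Sdc4* had 47.0%, 56.6% and 58.6% with S4U, and its unlabeled shares of 6.61% and 3.37% were the highest of the 9 genes in unlabeled replicate 1 and in unlabeled replicate 2. *Sdc1* had 42.1%, 61.2% and 41.4% with S4U, highest in the library that also gave its highest rate. The syndecans thus lay between 41.4% and 61.2%, below *Cd44* in each labeled library.

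*Gpc4* had 33.7%, 37.0% and 41.2% of converted reads in the labeled libraries, and *Gpc6* had 24.9%, 32.1% and 31.6%. *Gpc1* ranged from 26.2% to 50%, on at most 42 reads, and *Has2* from 37.5% to 66.7%, on at most 23. By this measure too, *Gpc6* lay below *Gpc4* and above *Gpc3* in each labeled library. The depth behind the rates ran from 183 to 550 covered Ts per labeled library for *Has2* up to 5000 to 16826 for *Sdc2*.

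**Figure D3:**
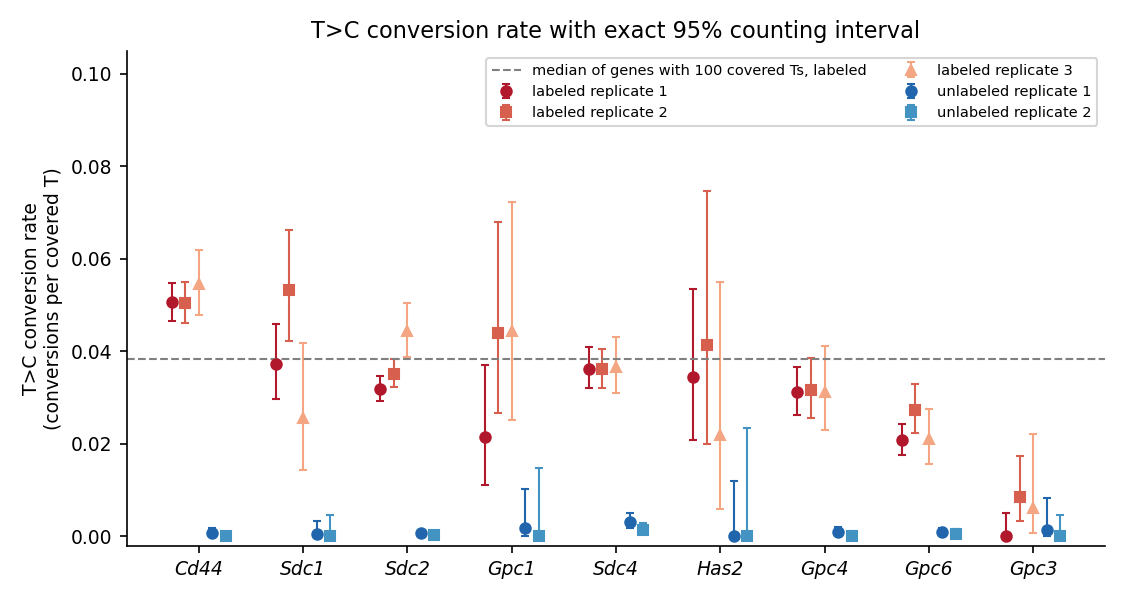
T>C conversion rate (conversions per covered T) of the 9 genes with reads, ordered by their labeled mean, with bars for the exact 95% counting interval of each library. Red symbols are labeled, blue symbols unlabeled libraries, and the dashed line is the median of 8290 genes in the labeled libraries (0.0384). *Cd44* lies above the line in each labeled library, *Gpc6* and *Gpc3* below it.

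Whether the genes' reads differed with S4U was tested by edgeR's quasi-likelihood test on 9807 genes. In this fit, which has no replicate block, none of the 9 genes passed an adjusted p of 0.05. Neither did any other gene (0% higher and 0% lower). Without adjustment, *Cd44* and *Sdc4* were higher at p below 0.05 and 0 of the 9 were lower, beside 2.84% higher and 3.12% lower of all genes. Neither stayed below 0.05 without unlabeled replicate 1, where the unadjusted edgeR p was 0.101 for *Cd44* and 0.180 for *Sdc4*, and *Sdc4* was at 0.0668 without labeled replicate 2 and at 0.0754 without labeled replicate 3. With DESeq2, 2 of the 9 again had an unadjusted p below 0.05, beside 1.42% higher and 1.3% lower of 14337 genes. After adjustment DESeq2 called none of the 9, beside 0.0697% of genes called higher and 0.0279% called lower. The log2 fold change of *Cd44* was 0.90 (SE 0.26, edgeR adjusted p = 0.626) and that of *Sdc4* 0.84 (SE 0.30, edgeR adjusted p = 0.741). A fit with the replicate number as a block called *Sdc1*, *Sdc4* and *Cd44* higher (edgeR adjusted p = 0.0229, 0.000177 and 1.8e-07). It called 5.38% of all genes higher and 6.3% lower. This block fit leaves 1 residual degree of freedom, and no source says that replicate numbers pair preparations.

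Other genes had wider errors or smaller differences. *Has2* stood at a log2 fold change of 1.15 (SE 0.54), *Gpc1* at 0.79 (SE 0.42) and *Sdc1* at 0.62 (SE 0.31). *Gpc3* stood at 0.13 (SE 0.44), *Gpc4* at −0.15 (SE 0.27), *Gpc6* at −0.28 (SE 0.31) and *Sdc2* at −0.33 (SE 0.25). Thus 6 were higher and 3 lower in sign, with a median of 0.62 beside 0.02 over all genes. This tally depends on unlabeled replicate 1, without which the signs of *Gpc3*, *Gpc4* and *Gpc6* turned. On the scale of counted reads, 5 of the 9 had each labeled library above both unlabeled ones (*Sdc1*, *Sdc4*, *Gpc1*, *Has2* and *Cd44*), as did 8.2% of all genes. *Sdc2* had each labeled library below both unlabeled ones, as did 13.1% of all genes. The summed fibroblast markers were also higher in each labeled library, and the part of this in the genes' values was not tested.

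**Figure D4:**
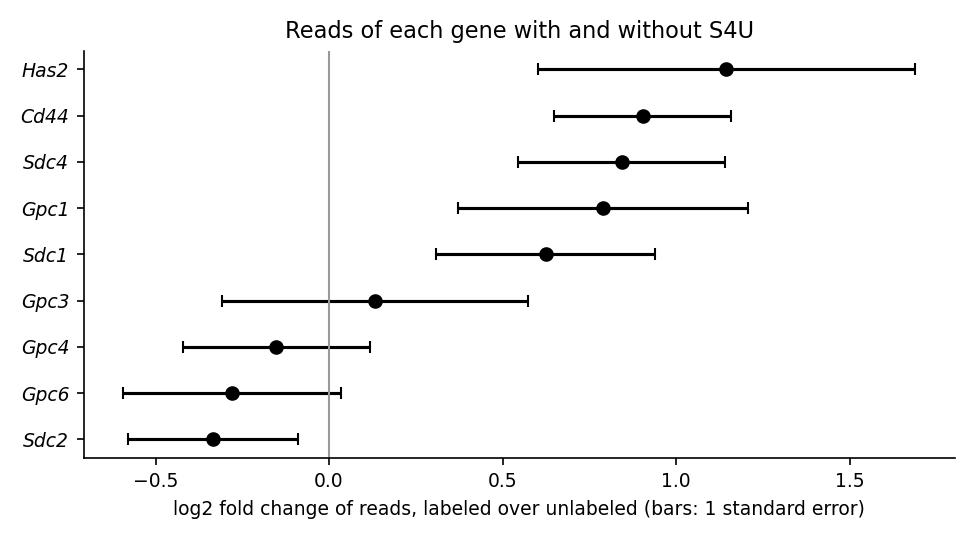
Log2 fold change of reads, labeled over unlabeled, from edgeR for the 9 genes with reads, with bars of 1 standard error. *Has2*, *Cd44*, *Sdc4*, *Gpc1* and *Sdc1* lie to the right of 0 by more than 1 standard error and *Sdc2* to the left. None passed the adjusted threshold in this fit, which has no replicate block, and *Sdc1*, *Sdc4* and *Cd44* passed it with the block.

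The other genes of the pathway, 62 in number, cover the enzymes that build, modify and cleave the chains and the proteins that bind them. Of these, 5 had no reads in any library: *Gpc5*, *Has3*, *Xylt1*, *Hapln1* and *Hapln3*. With *Has1* at 0 too, *Has2* was the synthase gene that was read. The T>C rate rose in 49 of the 51 genes tested, beside 95% of all genes, and the exceptions, named after their values were seen, were the heparanase gene *Hpse*, on 30 reads in all, and the scavenger receptor gene *Stab1*, on 87. Without the replicate block, none of 46 genes passed edgeR's adjusted threshold for reads. Before adjustment, 2 were higher and 3 lower below 0.05, beside 2.84% higher and 3.12% lower of all genes. With the block, edgeR called 6 higher and 8 lower, beside 5.38% and 6.3% of all genes. DESeq2 called 0 of the list, with 0 higher and 1 lower below 0.05 before adjustment, beside 1.42% higher and 1.3% lower of the genes it tested.

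Among the 25 pathway genes with at least 1000 covered Ts in every labeled library, the median rate was 0.0397. The related core proteins ran from 0.0184 ± 0.00566 for *Hspg2*, which encodes perlecan, to 0.0352 ± 0.00769 for *Tgfbr3*, which encodes betaglycan (SD, n = 3). In chain synthesis, the polymerase partners differed, with 0.0230 ± 0.00616 for *Ext2* and 0.0400 ± 0.00288 for *Ext1*. The sulfatases that trim heparan sulfate stood at 0.0246 ± 0.00224 for *Sulf2* and 0.0402 ± 0.00255 for *Sulf1*. *Sulf2* and *Ext2* thus lay near *Gpc6*, as did the remaining syndecan gene *Sdc3*, named after its value was seen, with 0.0228 ± 0.00176, below the other 3 syndecans.

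At the same minimum of 1000 covered Ts, the genes of sugar supply, hyaluronan binding, shedding and tail binding ran from 0.0352 to 0.0513. *Uap1* and *Ugdh*, enzymes of the nucleotide sugars that chains are made from, had 0.0376 ± 0.00249 and 0.0466 ± 0.00187 (SD, n = 3). The hyaluronan-binding proteoglycan gene *Vcan* had 0.0429 ± 0.00326 and *Tnfaip6*, whose product cross-links hyaluronan, 0.0446 ± 0.00467. Among proteases that shed syndecans and CD44, *Mmp14* had 0.0352 ± 0.00164 and *Adam10* 0.0437 ± 0.00526. Of the partners of the syndecan and CD44 tails, *Tiam1* had 0.0389 ± 0.00136 and *Rdx*, which encodes the actin linker radixin, 0.0513 ± 0.00220, the nearest to *Cd44*. These rates are descriptions over the same 3 labeled libraries, and differences between genes were not tested.

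**Figure D5:**
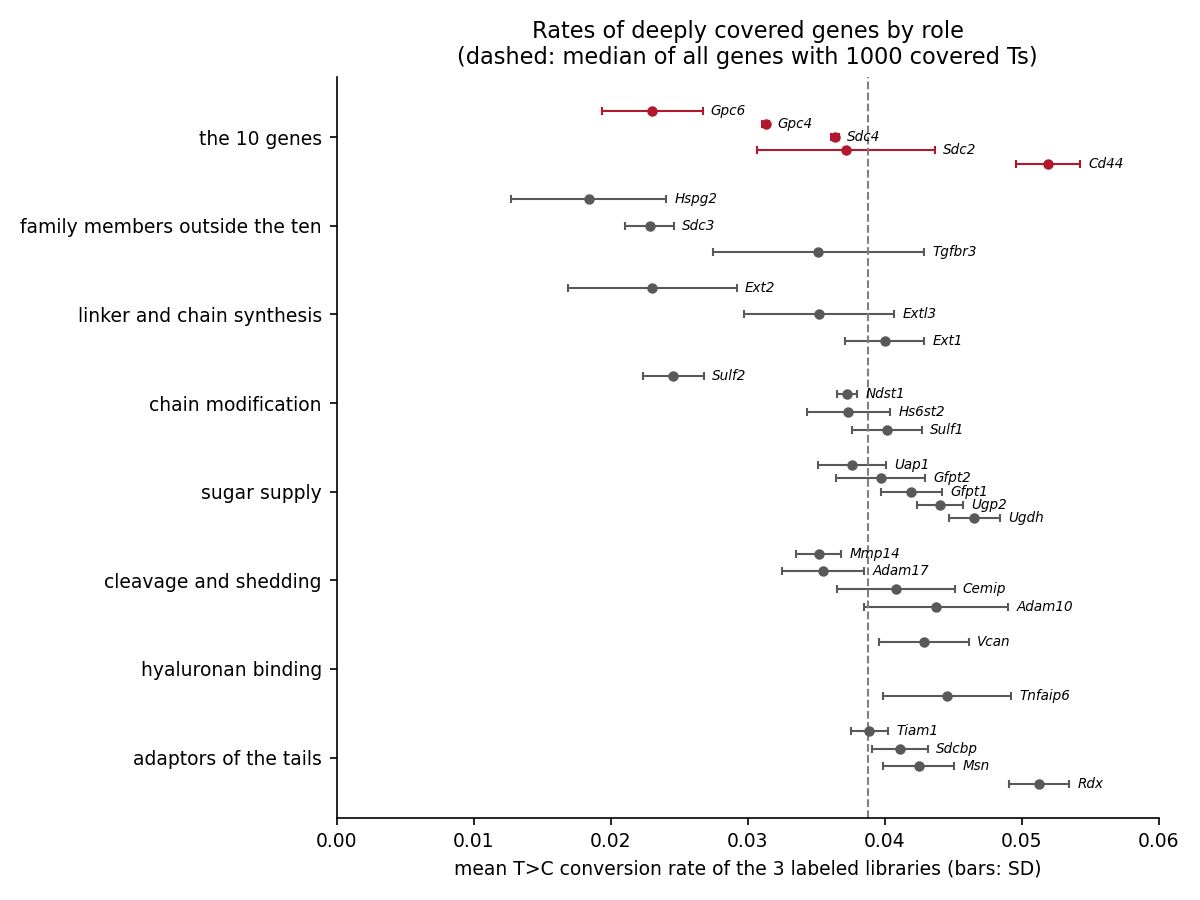
Mean T>C conversion rate of the 3 labeled libraries with its SD for the 5 of the 10 genes (red) and 25 other pathway genes (grey) with at least 1000 covered Ts in every labeled library, arranged by role. The dashed line is the median of the 2107 genes that reached this minimum in the unlabeled libraries too (0.0388). *Cd44* and *Rdx* lie farthest right, and *Hspg2*, *Sdc3*, *Ext2* and *Gpc6* farthest left.

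For reads, the genes with the lowest unadjusted p in their role, among those with at least 1000 covered Ts in every labeled library, were *Tgfbr3* at a log2 fold change of −0.51 (SE 0.28), *Extl3*, a starter of heparan sulfate chains, at 0.61 (SE 0.27), and *Ndst1*, which begins chain sulfation, at −0.50 (SE 0.24). *Ugdh* stood at 0.40 (SE 0.26), the sheddase gene *Adam17* at −0.61 (SE 0.25), *Vcan* at 0.65 (SE 0.32) and *Tiam1* at 0.58 (SE 0.24). Of the genes below 0.05 before adjustment, those outside this rule, named after their values were seen, were *Ezr*, which encodes the actin linker ezrin, at −1.68 (SE 0.39), the hyaluronan receptor gene *Hmmr* at −0.93 (SE 0.32) and *Msn*, which encodes moesin, at 0.62 (SE 0.26). None of these genes passed edgeR's adjusted threshold in the fit without the replicate block, and the list as a whole had a median of 0.01 beside 0.02 over all genes.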

How the data were processed

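SLAMseq tables of 5 libraries of mouse CF were analysed, grouped by the submitters' labels. The authors moved the molecular identifiers into the read names, mapped to mm39 with SLAM-DUNK 0.4.3 (version per the file headers), removed duplicates with umi-tools and counted on 3′ UTR intervals whose origin is not given in the sources used here. They deposited counts of reads, covered Ts and conversions per interval, unnormalized. The deposited conversion rate is a fraction, conversions over covered Ts. The deposited CPM is reads scaled by a library-wide number larger than the counted reads.

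Repeated rows were used once (40428 of 97442). The T content of 40380 of 40380 intervals matched GRCm39, and positions are counted from 1. Rates were compared by a two-sided beta-binomial likelihood-ratio test (chi-square, 1 degree of freedom; every library needs at least 1 covered T), reads by edgeR's quasi-likelihood test (TMM, filterByExpr), both with Benjamini-Hochberg adjustment over the whole table at 0.05. The SE of a log2 fold change is its size over the root of F. Like-length intervals lie within 20% of a gene's interval. Libraries of a group differed beyond sampling noise (chi-square per degree of freedom 2.20 to 18.2), so none was counted as a copy. Tests were tried on simulated data.

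All 10 genes were named by rule, other pathway genes by the highest and lowest rate and the lowest p of reads within a role among those with 1000 covered Ts. The genes and lists were chosen with earlier results of these data known. Alternatives were covered-T minimums, limma on log odds, DESeq2, other size factors and filters, summed intervals, the replicate block and each library left out. Rates and motifs were computed in Python 3.11.15 (numba 0.67.0, numpy 2.4.6, pandas 2.3.3), exact tests with scipy 1.17.1, plots with matplotlib 3.10.9, and reads in R 4.3.3 with edgeR 4.0.16, DESeq2 1.42.0 and limma 3.58.1.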

Additional observations from a re-analysis of the deposited data

How the results depend on the processing

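At least 1000 covered Ts in every library left 3154 intervals with a raised T>C rate of 18175, 5 of the genes and 25 other pathway genes, since fewer were tested, and 1 interval per gene gave 10623. Leaving out 1 library gave 16920 to 18549 intervals, 8 to 9 of the genes (9 without labeled replicate 1, where *Gpc3* passed) and 47 to 50 pathway genes. For reads, DESeq2 called 10 genes higher and 4 lower, none of the 9, and edgeR called none with any library left out. Over the libraries left out, the log2 fold change ran from −0.36 to 0.77 for *Gpc3*, from −0.35 to 0.070 for *Gpc4* and from −0.52 to 0.0099 for *Gpc6*, with the sign turned without unlabeled replicate 1. With the replicate block, which leaves 1 residual degree of freedom, edgeR called 528 genes higher and 618 lower (5.38% and 6.3%), among them 3 of the 9, *Sdc1* (log2 0.67, adjusted p = 0.0229), *Sdc4* (0.73, adjusted p = 0.000177) and *Cd44* (0.94, adjusted p = 1.8e-07), and 14 pathway genes, 6 higher and 8 lower. The methods say that unlabeled cells were kept in parallel, but no source says that numbers pair preparations, and with 2 unlabeled libraries the correlation of deviations within numbers (0.786 and 0.642) cannot show it. The deposited CPM without labeled replicate 1 was 1.24 to 1.83 times lower, by over 1.5 times in 4 genes. Of 89 alternative log2 fold changes of the genes, 83 kept direction and side of the threshold. The *Gpc3* rate rests on few reads.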
